A study of Mus musculus with 7 samples.

Results

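Chemokines and their receptors were examined in bone marrow of Aim2 knock-out (KO) and wild-type (WT) mice. The members are the protein-coding genes of GENCODE M21 whose symbol starts with Ccl, Cxcl, Ccr, Cxcr or Cx3cr and a digit, without Cxcl12 and without symbols that had 0 reads in every library. The rule found 50 symbols, 32 ligands and 18 receptors, among 35498 genes. Ccl20, Ccl26 and Cxcl17 had no read in any library. The data are strand-specific mRNA libraries of bone marrow from female mice aged 5 to 6 months, 3 labelled Aim2 KO and 4 labelled WT. The KO animals are described as null for Aim2, which encodes a sensor of DNA in the cytosol. Strain, the deleted part of the gene and whether the animals were littermates are not given in the sources used here. Nothing in the labels ties the libraries to separate mice, and p-values therefore measure only how these libraries spread, which may be technical.

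Chemokines are small secreted proteins that direct the movement of leukocytes, and they are named CC or CXC after the spacing of their leading cysteines. They act on receptors with a membrane-spanning bundle of helices that signal through inhibitory G proteins. In bone marrow, Cxcr4 holds stem cells, developing B cells and neutrophils in place, Cxcr2 drives the release of neutrophils into blood, and Ccr2 drives the release of monocytes. Ccr7 and Cxcr5 guide lymphocytes and dendritic cells within lymph nodes and spleen. Cxcl9 and Cxcl10 are ligands of Cxcr3 that are induced by interferon.

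The libraries held 20300468 to 21099972 estimated reads. Aim2 itself had 47 to 157 reads in the KO libraries, with the highest number in KO library 1, against 533 to 601 in the WT libraries. Markers of neutrophils were the most abundant of the leukocyte marker lists, with a summed level of 17957 to 25401 CPM (reads scaled to library size) over all libraries. WT library 1 stood apart by its share of haemoglobin reads, 19.9% against 11.3 to 15.6% in the other libraries, and KO library 3 by skeletal muscle transcripts (5140 CPM in the sum of 6 markers, against 52.2 to 1812 CPM elsewhere).

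A filter on low counts left 33 of the 50 symbols for testing, 18 ligands and 15 receptors. Between KO and WT marrow 1 of these 33, the lymph node homing receptor Ccr7, changed, and it was lower in KO. Across all 14238 tested genes 0.646% changed, 0.478% higher and 0.169% lower (edgeR's quasi-likelihood test, adjusted p under 0.05). Without adjustment, p was under 0.05 for 7 members that were higher in KO (21.2%, against 6.45% of all tested genes) and for 2 that were lower (6.06%, against 5.01%). Among the 7 were the receptors Ccr1, Cxcr2, Ccr3 and Ccr2 and the ligands Cxcl10 and Cxcl9, and the 2 were Ccr7 and Cxcr5. The KO and WT libraries did not overlap for 4 members (12.1%), a share close to the 12.9% of all tested genes. Of these 4, Ccr1, Cxcr2 and Cxcl10 were higher in KO, which 6.95% of all tested genes were without overlap, and Ccr7 was lower, against 5.94%. DESeq2 called 3 members, Ccr1, Ccr7 and Cxcr5, and 2.79% of all genes, and voom with sample weights called 2, Ccr7 and Cxcr5, and 2.14% of all genes. At an adjusted p under 0.1 in edgeR's test Ccr7 was still the only member, against 1.39% of all tested genes. The median log2 fold change of KO over WT was 0.15 over the tested members and -0.01 over all tested genes.

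**Figure D1:**
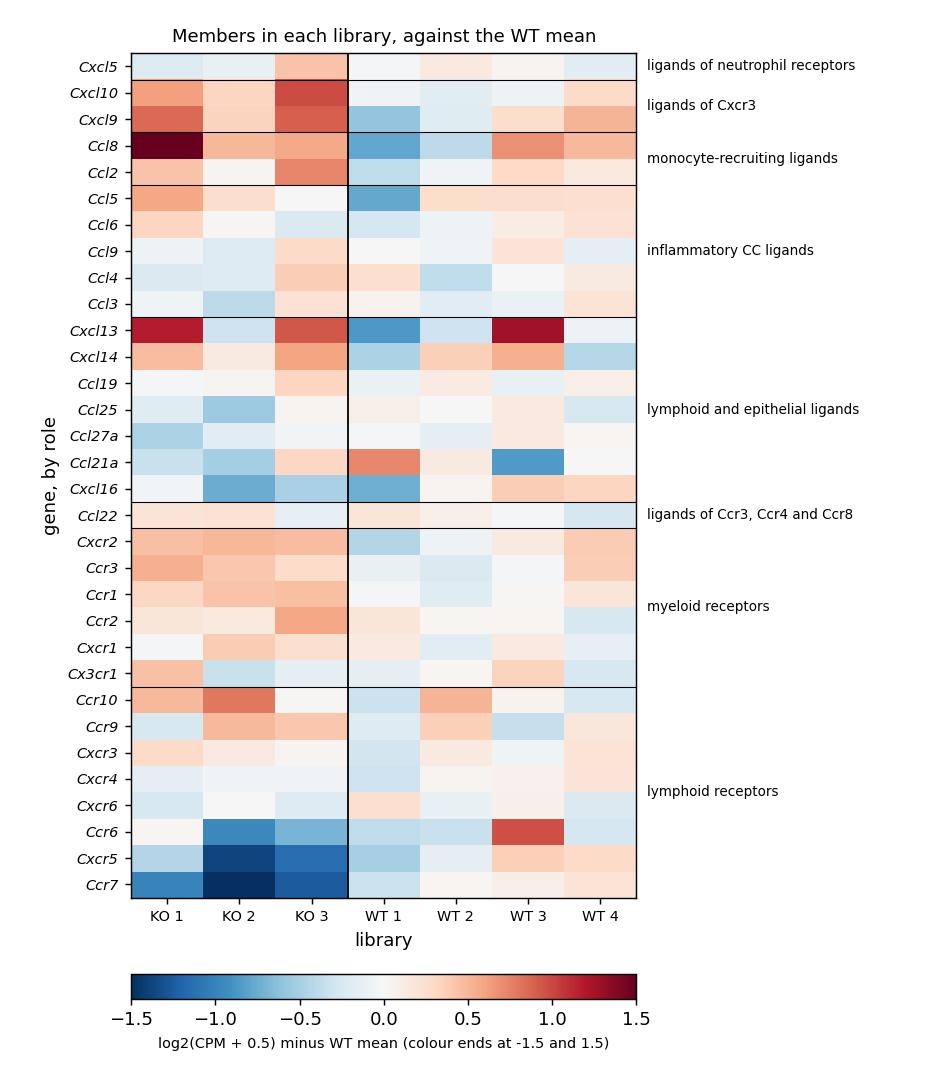
Each row is 1 of 32 tested genes, grouped by role, and each column 1 library; colour is log2(CPM + 0.5) minus the mean of the 4 WT libraries. Ccr7 is blue in all 3 KO libraries, the myeloid receptors are mostly red there, and Ccl8 and Cxcl13 vary among libraries of the same genotype.

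The levels of the members spanned a wide range. Levels of different genes are given in TPM, a scaled abundance that is corrected for transcript length. Ccl6, a CC chemokine of myeloid cells, was highest with 157 ± 30.7 TPM (SD, n = 3) in KO and 141 ± 26.03 TPM (SD, n = 4) in WT. Cxcr4 followed with 150 ± 3.15 TPM in KO and 140 ± 33.9 TPM in WT, and these neighbours did not differ beyond their spread. Next in order of mean TPM came Ccl5 (54.8), Ccl9 (39.7), Cxcr2 (34.4), Ccr2 (32.9), Cxcl14 (27.1) and Ccr1 (21.2). Ccl6, Ccl5 and Ccl9 held 70.3% of the summed TPM of the ligands, and Cxcr4, Cxcr2 and Ccr2 held 79.9% of that of the receptors. These TPM values sum all transcripts of a gene, coding or not. A Ccl6 retained-intron transcript (mean effective length 508 bases, against 1151 for the coding one) weighs more in TPM than in reads. So does a noncoding Ccl9 transcript (152 bases, against 2587.5). The order by coding transcripts alone was not computed. WT library 1 was the lowest library in summed receptor TPM (167 against 260 to 297 in the others), and haemoglobin took 44.2% of its TPM against 28.1 to 37.6% in the others.

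**Figure D2:**
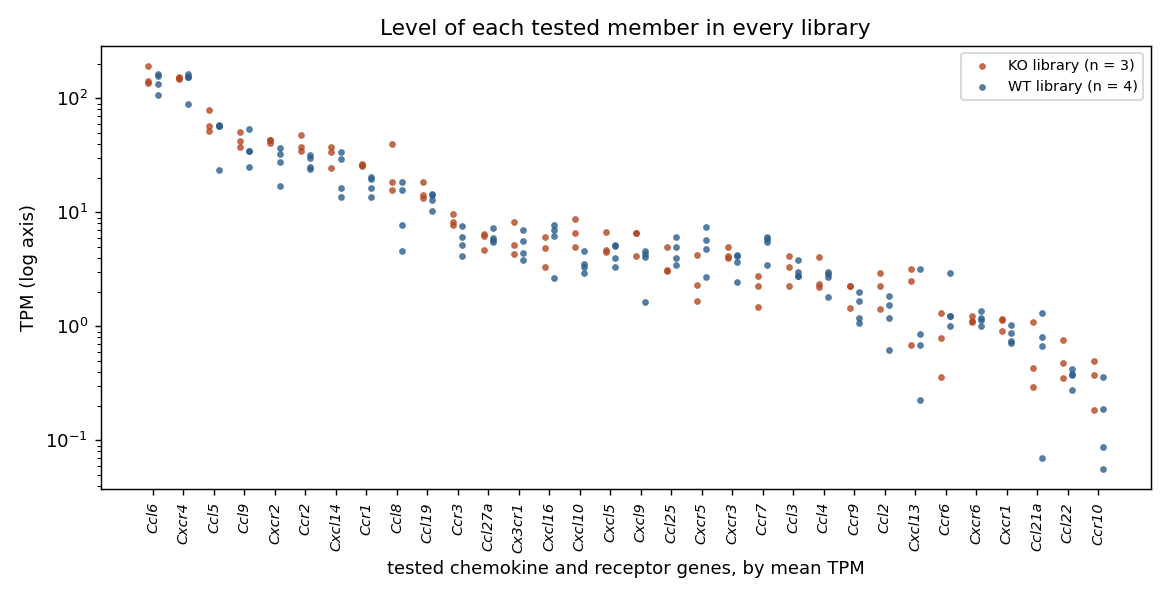
Each point is the TPM of 1 gene in 1 library on a log axis, KO in red and WT in blue, with 32 tested genes ordered by mean TPM. Ccl6 and Cxcr4 lead at mean levels of 148 and 144 TPM, and Ccr10 is last at 0.251 TPM.

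Of the 2 ligands of Cxcr3 neither passed the test, although both stood on the higher side in KO. Cxcl10, which attracts activated T cells, had 5.59, 4.47 and 7.33 CPM in KO libraries 1 to 3 and 3.32, 3.05, 3.25 and 4.35 CPM in WT libraries 1 to 4. The groups did not overlap, with KO library 2 only just above WT library 4. The log2 fold change was 0.73 ± 0.21 (SE), with an unadjusted p of 0.00731 and an adjusted p of 0.218 in edgeR's test. Art3 overlaps Cxcl10 on the opposite strand. Cxcl9, a neighbour of Cxcl10 on chromosome 5, had 16.6, 11.5 and 17.1 CPM in KO libraries and 5.79, 7.85, 10.9 and 13.02 CPM in WT libraries. Here KO library 2 lay below WT library 4, so the groups overlapped. The log2 fold change was 0.68 ± 0.27 (SE), and the adjusted p was 0.388 in edgeR's test. Their receptor Cxcr3 was at 7.04 ± 0.646 CPM in KO libraries and 6.34 ± 0.996 CPM in WT libraries (a log2 fold change of 0.15, adjusted p = 0.767, edgeR).

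The promoter windows of these ligands are shown because both genes are known as interferon targets. The windows run from 250 bases before to 50 after the RefSeq start on GRCm38.p6, both on the minus strand, and capitals mark matches to the motifs searched.
Cxcl10, chr5:92348840-92349139: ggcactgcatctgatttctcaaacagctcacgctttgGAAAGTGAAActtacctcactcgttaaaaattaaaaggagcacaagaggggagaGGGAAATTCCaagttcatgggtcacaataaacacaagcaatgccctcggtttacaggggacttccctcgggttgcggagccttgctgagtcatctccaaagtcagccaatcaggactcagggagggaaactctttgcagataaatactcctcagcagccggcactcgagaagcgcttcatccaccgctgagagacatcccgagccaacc
Cxcl9, chr5:92328030-92328329: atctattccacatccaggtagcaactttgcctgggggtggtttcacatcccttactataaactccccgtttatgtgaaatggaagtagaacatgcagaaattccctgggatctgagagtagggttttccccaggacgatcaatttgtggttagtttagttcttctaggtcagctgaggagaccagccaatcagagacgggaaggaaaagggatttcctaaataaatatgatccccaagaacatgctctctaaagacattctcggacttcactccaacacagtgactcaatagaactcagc
The motifs were the core of the interferon-stimulated response element (a pair of GAAA with 2 free bases between), the GAS element bound by STAT factors (TTCNNNGAA), and a kappa B site (GGGA and TTCC with 2 free bases between), each on both strands. The Cxcl10 window held GAAAGTGAAA, beginning at position -213 from the start, and GGGAAATTCC, beginning at -159. The Cxcl9 window held no exact match to these motifs, and near matches were not searched for. RefSeq windows were found for 36 of the 50 symbols, 40 windows in all. The response element occurred in 3 of these 40 windows (7.5%; Ccl19, Cxcl10 and Cxcl14), against 3.44% of 32851 windows of all genes. The kappa B site occurred in 6 (15%; Ccl1, Ccr3, Cxcl1, Cxcl10, Cxcl2 and Cxcl3), against 1.47% of all windows. The GAS element occurred in 4 (10%), against 8.3%.

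Of the ligands grouped as monocyte-recruiting, Ccl8 and Ccl2 were tested and did not pass. Ccl8 had 10.2, 4.47 and 4.75 CPM in KO libraries and 1.55, 2.18, 5.19 and 4.45 CPM in WT libraries. KO library 1 was high and the other KO libraries lay among the WT libraries, so that the log2 fold change is 0.46 without KO library 1 (with it, 0.95 with an SE of 0.45, and the adjusted p 0.481 in edgeR's test). Ccl2, the main ligand of Ccr2, was at 1.22 ± 0.406 CPM in KO libraries and 0.796 ± 0.251 CPM in WT libraries, with overlap. Too few reads were found to test Ccl7 (19 in all KO and 24 in all WT libraries) and Ccl12 (27 and 23). Macrophage markers, whose cells are a known source of Ccl8, overlapped between the groups (911 to 1234 CPM in KO libraries and 706 to 1325 CPM in WT libraries in the sum of 8 markers).

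The inflammatory CC ligands Ccl3, Ccl4, Ccl5, Ccl6 and Ccl9 were the most abundant ligand group, and 0 of 5 passed. Ccl6 had a log2 fold change of 0.05 ± 0.15 (SE) and Ccl9 of 0.01 ± 0.13 (SE). Ccl5, made by T and NK cells, was at 18.4 ± 3.81 CPM in KO libraries and 15.5 ± 4.67 CPM in WT libraries, where WT library 1 had 8.52 CPM and the other WT libraries 17.8 to 17.9 CPM. Ccl3 and Ccl4 had log2 fold changes of -0.08 and 0.00. These 5 genes lie together on chromosome 11 (83525778 to 83664683).

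Among ligands of lymphoid tissue and epithelium 0 of 7 tested genes passed. Cxcl16, a membrane-bound ligand of Cxcr6, was at 8.26 ± 2.21 CPM in KO libraries and 11.5 ± 3.64 CPM in WT libraries (a log2 fold change of -0.48 with an SE of 0.29, and the adjusted p 0.589 in edgeR's test). Cxcl14, whose product is found in many epithelia and stroma, was at 51.3 ± 8.11 CPM in KO libraries and 40.5 ± 14.6 CPM in WT libraries, with WT libraries 1 and 4 low at 27.7 and 28.5 CPM. Ccl19, a ligand of Ccr7, was at 7.35 ± 1.01 CPM in KO libraries and 6.71 ± 0.604 CPM in WT libraries. Ccl21a, the other Ccr7 ligand with enough reads, had 1 to 21 reads per library and a log2 fold change of -0.45 ± 0.77 (SE). Ccl27a, Ccl25 and the B cell attractant Cxcl13 had log2 fold changes of -0.26, -0.24 and 0.67. The value of Ccl25 was -1.03 on protein-coding transcripts alone and -0.08 without KO library 2, and did not pass in either. Cxcl13 ranged from 0.625 to 2.68 CPM in KO libraries and from 0.268 to 2.86 CPM in WT libraries. Ccl21a, Ccl21b and Ccl21c are close copies, and so are the Ccl27 genes, so the split of reads among them is uncertain.

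The member ligands grouped by their action on the neutrophil receptors Cxcr1 and Cxcr2 (Cxcl1, Cxcl2, Cxcl3, Cxcl5 and Cxcl15) had few reads. Ppbp, whose product gives another Cxcr2 ligand and which the symbol rule does not take in, averaged 1141 ± 208 CPM in KO libraries and 1005 ± 111 CPM in WT libraries. Cxcl5 was the only member of the group tested, at 5.98 ± 1.61 CPM in KO libraries and 5.73 ± 0.555 CPM in WT libraries. Cxcl2 had 21 reads in all KO and 22 in all WT libraries, Cxcl3 had 10 and 12, Cxcl1 had 6 and 5, and Cxcl15 had 0 and 1. Of the group Ccl1, Ccl11, Ccl17, Ccl22 and Ccl24, ligands of Ccr3, Ccr4 or Ccr8, only Ccl22 was tested, with a log2 fold change of 0.15. Over all 18 tested ligands 0 passed with edgeR, DESeq2 or voom with sample weights, and 2, Cxcl10 and Cxcl9, had an unadjusted p under 0.05 with edgeR and were higher (11.1%, against 6.45% of all tested genes).

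Ccr7 was lower in every KO library than in every WT library. The gene (ENSMUSG00000037944.8) lies on the minus strand of chromosome 11 (99144196 to 99155077, GRCm38 as for all coordinates here). Its reads numbered 106, 62 and 91 in KO libraries 1 to 3 and 154, 220, 229 and 253 in WT libraries 1 to 4. All fell on its only quantified transcript, which is protein-coding. The levels were 4.98, 2.98 and 4.12 CPM in KO libraries and 8.26, 10.7, 11.1 and 12.1 CPM in WT libraries. WT library 1 was the lowest of its group and still above each KO library. The mean fell from 10.5 ± 1.63 CPM (SD, n = 4) to 4.02 ± 1.00 CPM (SD, n = 3), with a log2 fold change of -1.39 ± 0.20 (SE), and the adjusted p was 0.0324 in edgeR's test. The adjusted p stayed under 0.05 without KO library 1 (0.0434) or WT library 1 (0.0347). It was 0.0927 without KO library 2, 0.0692 without KO library 3, 0.114 without WT library 2, 0.102 without WT library 3 and 0.0731 without WT library 4. Limma on TPM values gave adjusted p of 0.145 to 0.29 for Ccr7.

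Cxcr5, the B cell follicle receptor, was the other member with an unadjusted p under 0.05 on the lower side. It had 9.43, 4.66 and 5.61 CPM in KO libraries and 9.06, 11.6, 16.7 and 15.9 CPM in WT libraries. KO library 1 lay just above WT library 1, so the groups overlapped. The log2 fold change was -1.02 ± 0.29 (SE), with an adjusted p of 0.218 in edgeR's test, 0.0194 with DESeq2 and 0.0461 with voom and sample weights. Ccr6, a receptor of mature B cells and some T cells, had a log2 fold change of -0.86 ± 0.56 (SE), and WT library 3 was high at 3.25 CPM against 0.965 to 1.10 CPM in the other WT libraries.

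**Figure D3:**
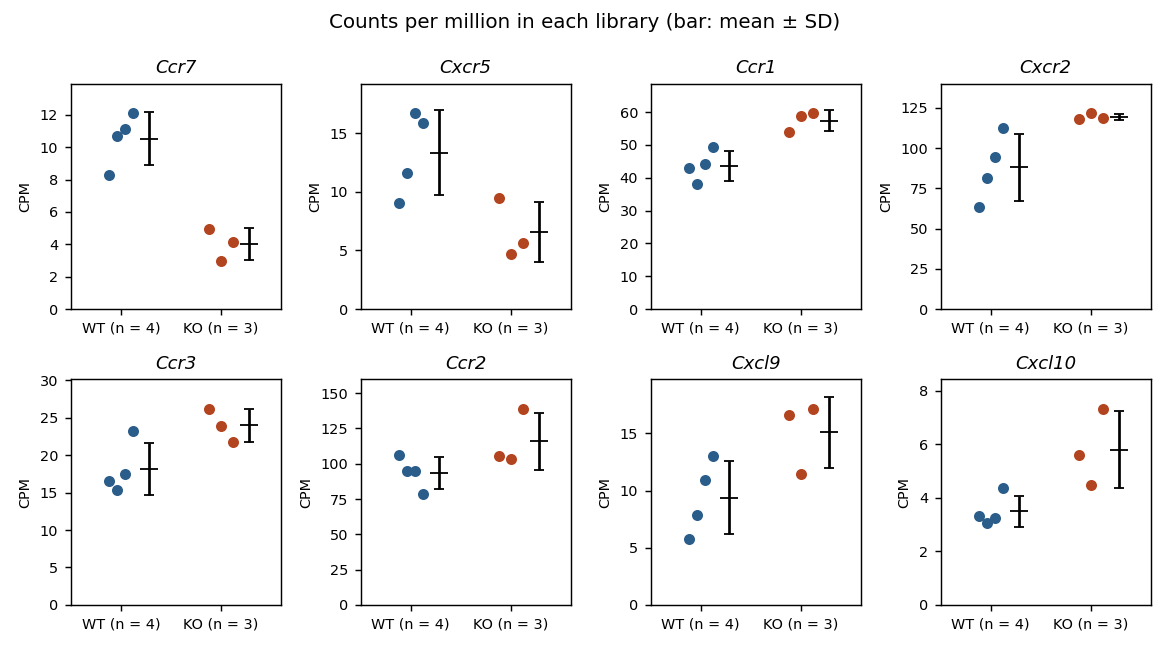
Points are the CPM of 8 genes in each library, WT in blue and KO in red, and bars are the mean ± SD. Ccr7 is lower in all 3 KO libraries than in all 4 WT libraries, while Ccr1, Cxcr2 and Cxcl10 are higher without overlap and the other genes overlap between the groups.

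Markers of lineages that include the cells carrying Ccr7 and Cxcr5 also lay mostly on the lower side in KO. Each of the 9 B lineage markers was on the lower side (median log2 fold change -0.95, 0 past the test). Their summed level was 167 to 268 CPM in KO libraries and 352 to 561 CPM in WT libraries. Ms4a1, Vpreb1 and Blnk overlapped between the groups, while the others of this list did not. Each of the 7 T cell markers was also on the lower side, 0 past the test, and they summed to 56.4 to 73.2 CPM in KO libraries and 75.9 to 97.1 CPM in WT libraries. Cd4 weighed most in this sum, with a mean of 23.1 CPM in KO libraries and 37.5 CPM in WT libraries. Cd4, Cd8a and Lck did not overlap between the groups, while Cd3d, Cd3e, Cd3g and Cd28 (-0.03) overlapped. Of 5 markers of conventional dendritic cells 4 were under 0 and 1, Cd209a, passed as lower, and the sum was 53.8 to 64.7 CPM in KO libraries and 67.4 to 72.3 CPM in WT libraries. Cd209a (-1.35) and Clec10a (-0.46) did not overlap between the groups, while Clec9a (-0.21), Zbtb46 (-0.13) and Flt3 (0.06) overlapped. No marker of these lists was at 0. In bulk marrow, fewer cells of a type and less RNA per cell cannot be told apart.

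Several receptors were also expressed as a percentage of the summed CPM of their cell types' markers. Such a ratio of bulk levels does not separate cell number from RNA per cell either, since it also moves with the markers. The ratio of Ccr7 to T cell markers was 6.80, 5.29 and 6.76% in KO and 10.9, 11.8, 11.8 and 12.5% in WT, with no overlap. The ratio of Ccr7 to markers of conventional dendritic cells was 9.25, 5.44 and 6.37% in KO and 12.1, 15.8, 15.3 and 17.96% in WT, also with no overlap. Against B lineage markers the gap was narrower, at 1.86, 1.78 and 1.59% in KO and 1.92, 3.02, 2.47 and 2.16% in WT, where KO library 1 came close to WT library 1. The ratio of Cxcr5 to B lineage markers overlapped, with 2.82 ± 0.684% (SD, n = 3) in KO and 2.99 ± 0.695% (SD, n = 4) in WT. With 3 against 4 libraries an exact permutation test (35 regroupings, two-sided) cannot give a p below 0.0571. That value was reached by 6 of the 16 ratios computed, which becomes 0.152 after Benjamini-Hochberg adjustment over the 16.

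The ratio of Cxcr3 to T cell markers went the other way, at 10.6, 12.3 and 10.6% in KO and 6.71, 7.67, 6.41 and 7.54% in WT, with no overlap (exact permutation p = 0.0571, adjusted 0.152). Cxcr3 is also carried by NK cells, whose marker sum overlapped between the groups at 22.9 to 29.4 CPM in KO libraries and 18.4 to 25.2 CPM in WT libraries. Cxcr6, a receptor of effector T cells, was at 1.89 ± 0.200 CPM in KO libraries and 2.15 ± 0.380 CPM in WT libraries.

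**Figure D4:**
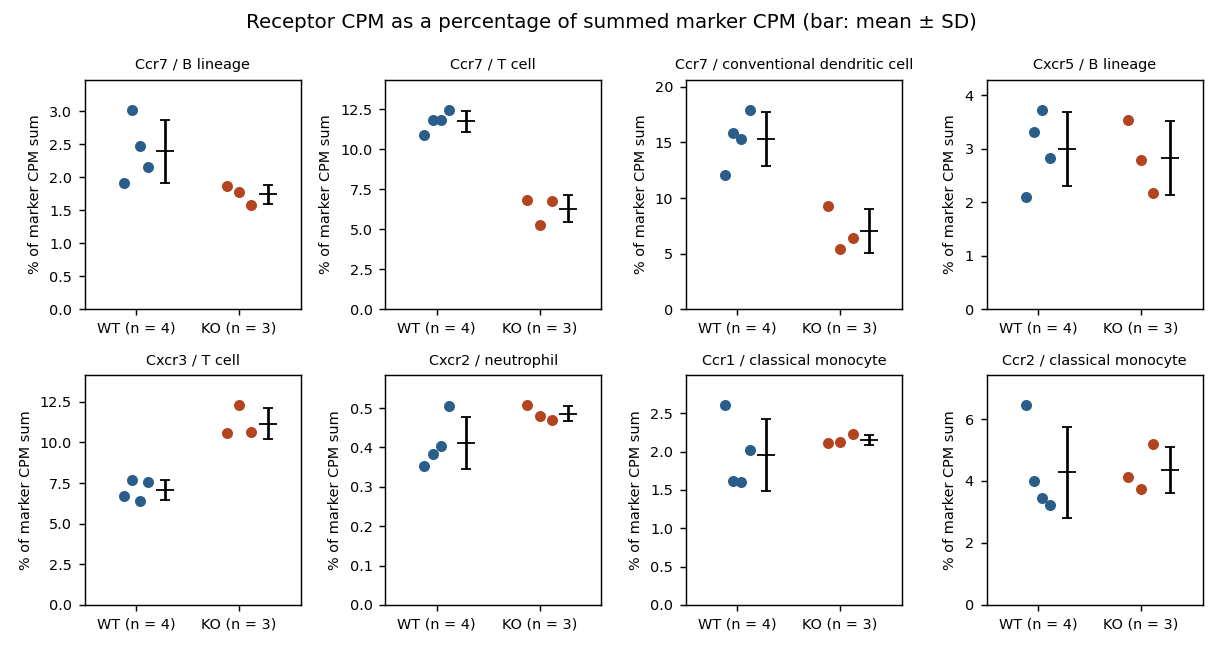
Points give receptor CPM as a percentage of the summed CPM of a marker list in each library, WT in blue and KO in red, with the mean ± SD. Ccr7 is lower against each of 3 lists without overlap, Cxcr3 is higher against T cell markers, and the ratios of Cxcr5, Cxcr2, Ccr1 and Ccr2 overlap between the groups.

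Cxcr4, the retention receptor, was at 188, 199 and 200 CPM in KO libraries and 167, 213, 217 and 237 CPM in WT libraries. The KO libraries lay within the WT range. The log2 fold change was -0.09 ± 0.11 (SE), and the adjusted p was 0.82 in edgeR's test. Its sign was positive (0.13) in each of the 3 fits on TPM values, which shift the median of all genes by 0.10 to 0.13. Cxcr4 was 70.1 to 119% of the B lineage marker sum in KO and 38.8 to 60.5% in WT, while against neutrophil markers it was 0.785 to 0.805% in KO and 0.928 to 1.06% in WT. Ccr9, found on plasmacytoid dendritic cells, and Ccr10, found on plasma cells, had log2 fold changes of 0.24 and 0.94. Ccr10 had 2 to 17 reads per library. Plasma cell markers summed to 664 to 828 CPM in KO libraries and 408 to 622 CPM in WT libraries, without overlap. Jchain weighed most in this sum, with a mean of 528 CPM in KO libraries and 355 CPM in WT libraries. Sdc1 and Tnfrsf17 overlapped between the groups, while Jchain, Prdm1 and Xbp1 did not, and 0 of the list passed the test.

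The receptors of myeloid cells were all on the higher side in KO, but 0 of 7 tested passed with edgeR and 5 had an unadjusted p under 0.05. Of all tested genes 47.3% had a log2 fold change above 0 and 6.45% were higher with an unadjusted p under 0.05. DESeq2 called Ccr1 and voom with sample weights called none. Ccr1, a receptor for Ccl3, Ccl5, Ccl6 and Ccl9, had 53.9, 58.7 and 59.7 CPM in KO libraries and 42.9, 38.2, 44.2 and 49.4 CPM in WT libraries. The groups did not overlap, and the log2 fold change was 0.40 ± 0.09 (SE), with an adjusted p of 0.13 in edgeR's test and 0.0138 with DESeq2. Cxcr2, the receptor of neutrophils for ligands such as Cxcl1 and Cxcl2, had 118, 122 and 119 CPM in KO libraries and 63.5, 81.5, 94.4 and 113 CPM in WT libraries. The KO libraries were close to each other and WT library 4 approached them (a log2 fold change of 0.44 with an SE of 0.17, and the adjusted p 0.369 in edgeR's test). Ccr3, the eotaxin receptor of eosinophils, was at 24.0 ± 2.19 CPM in KO libraries and 18.1 ± 3.52 CPM in WT libraries, with overlap through WT library 4.

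Ccr2, which brings monocytes out of the marrow, had 105, 103 and 139 CPM in KO libraries and 106, 94.98, 95.18 and 78.5 CPM in WT libraries. KO library 3 was high and WT library 1 lay level with the other KO libraries (a log2 fold change of 0.31 with an SE of 0.13, and the adjusted p 0.436 in edgeR's test). Cxcr1 had a log2 fold change of 0.31 and Cx3cr1, the receptor that marks nonclassical monocytes, one of 0.01. Cx3cr1 ranged from 15.9 to 27.4 CPM in KO libraries and from 16.8 to 25.5 CPM in WT libraries. Cd300e, a marker of nonclassical monocytes, passed as higher. That list of 6 markers summed to 301 to 332 CPM in KO libraries and 236 to 262 CPM in WT libraries, without overlap. Spn weighed most in this sum, with a mean of 225 CPM in KO libraries and 195 CPM in WT libraries. Pou2f2 (a log2 fold change of -0.006) overlapped between the groups, while Cd300e, Ace, Nr4a1, Treml4 and Spn did not.

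Marker sums of neutrophils, classical monocytes, and eosinophils and basophils overlapped between the groups, but most of their markers were on the higher side. Of 10 neutrophil markers 9 had a log2 fold change above 0 (median 0.25), and of 5 classical monocyte markers all 5 did (median 0.35), with 0 past the test in either list, beside a median of 0.40 for the myeloid receptors. Of the neutrophil list Ltf (0.26), Ngp (0.27), Retnlg (0.26) and Mmp8 (0.46) did not overlap between the groups. Elane, Mpo, Ly6g, Camp, S100a8 and S100a9 overlapped. Of the classical monocyte list Ly6c2 (0.60), F13a1 (0.45) and Csf1r (0.35) did not overlap between the groups, while Fn1 (0.08) and Chil3 (0.09) overlapped. Of all tested genes 12.9% did not overlap. Neutrophil markers summed to 23312 to 25401 CPM in KO libraries and 17957 to 23337 CPM in WT libraries, and classical monocyte markers to 2556 to 2762 CPM in KO libraries and 1647 to 2750 CPM in WT libraries. Eosinophil and basophil markers summed to 1017 to 2293 CPM in KO libraries and 246 to 1397 CPM in WT libraries. Expressed against these lists, Cxcr2, Ccr1, Ccr2 and Ccr3 overlapped between KO and WT. Ccr2 was 4.35 ± 0.751% of classical monocyte markers in KO and 4.28 ± 1.48% in WT. The part of cell numbers in these values was not tested.

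Ccr1, Ccr3 and Ccr2 lie near each other on chromosome 9 (123962124 to 124113557), and the unadjusted p of all 3 was under 0.05, at log2 fold changes between 0.31 and 0.40. Ccr1l1, between Ccr1 and Ccr3, had 21 reads in all KO and 23 in all WT libraries and was not tested. The receptors next to the group, Cxcr6 and Ccr9, had log2 fold changes of -0.19 and 0.24 with adjusted p of 0.783 and 0.775 (edgeR). Of the other tested genes around them, Fyco1 and Lztfl1 were at 0.06 and 0.03, and Slc6a20a and 2010315B03Rik at -0.33 and -0.14.

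**Figure D5:**
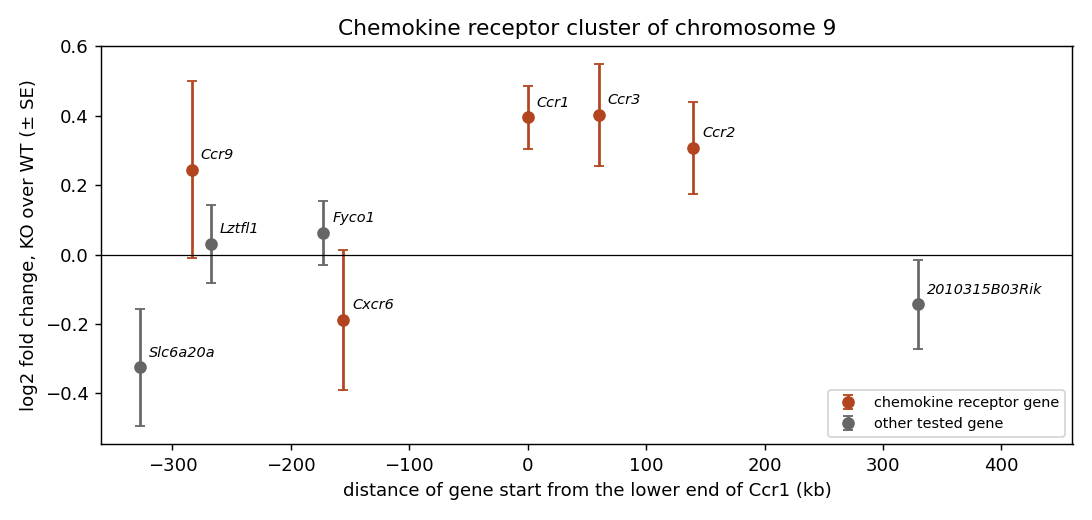
Log2 fold changes of KO over WT ± SE are plotted against the distance in kb of each gene's lower coordinate from that of Ccr1. Receptors are in red and other tested genes in grey. Ccr1, Ccr3 and Ccr2 sit between 0.31 and 0.40, and the genes on either side between -0.33 and 0.24.

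Other genes of the pathway, given by a list of 35, did not pass. Of 34 tested 0 were called by edgeR, DESeq2 or voom with sample weights, and the unadjusted p was under 0.05 for 2 that were higher (5.88%, against 6.45% of all tested genes) and 1 that was lower (2.94%, against 5.01%), shares at or below the background. The 2 were the scavenging receptors Ackr4 (15.5 CPM in KO libraries and 12.9 CPM in WT libraries) and Ackr3 (2.72 and 1.99 CPM), which take up chemokines without G protein signalling. The lower one was Dpp4, a protease that trims the ends of chemokines, with a log2 fold change of -0.38. The platelet chemokines Ppbp and Pf4, made by megakaryocytes, were at log2 fold changes of 0.18 and 0.06. Of 22 genes of signal transduction 19 were above 0 in log2 fold change (86.4%, against 47.3% of all tested genes) and the 22 ranged from -0.11 to 0.38, among them Rac2 (0.23) and the G protein subunit Gnai2 (0.11).

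The 17 symbols left untested had few reads. They included Ccr4, Ccr8, Ccl1, Ccl11, Ccl17, Ccl24, Ccl28, Ccl21b, Ccl21c and Ccl27. Ccr4, a receptor of helper T cells, had 11, 6 and 8 reads in KO libraries and 3, 6, 4 and 3 in WT libraries. Ccr8 had 11 reads in all KO and 16 in all WT libraries.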

How the data were processed

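Per the submitters' processing notes, FastQC 0.11.9 and Salmon 1.7.0 were used with the build GRCm38.p6. The sources used here give neither Salmon's options nor the annotation release. The authors deposited, per transcript, an estimated count without normalization and a TPM value scaled for effective length and library total; per the file headers, the transcript and effective lengths stand beside them. Groups and numbers come from the sample titles. Of 116546 transcripts 569 had no gene in GENCODE M21 and held at most 0.0662% of the reads. Estimated counts were summed per gene, rounded, filtered with filterByExpr, scaled with TMM and tested with edgeR 4.0.16 (R 4.3.3; quasi-likelihood test, Benjamini-Hochberg adjustment over 14238 genes, adjusted p under 0.05). CPM uses the TMM-adjusted library size, and the SE was derived from each log2 fold change and its F statistic. The fit was tested on simulated data. Alternatives used RLE scaling, scaling without haemoglobin, immunoglobulin and mitochondrial genes, DESeq2 1.42.0, limma 3.58.1 (voom with sample weights, log2(TPM + 0.1) and log2(TPM + 1)), other filters, coding transcripts alone, a length offset, the sample number as a block, a threshold of 0.1 and each library left out.

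The members, role groups, marker and pathway lists were chosen with earlier results of these data known. Genes given with full values were those called, the up to 4 with the smallest p per role group, the 8 with the highest TPM, and those with an unadjusted p under 0.05 and no overlap; others appear with fewer values, chosen after they were seen. Tests of single ratios are exact permutation tests. Depth limits genes with few reads. Opposite-strand genes with reads overlap Cxcl10, Cxcl16, Ccl25, Ccl27a, Cxcr5, Cxcr6, Cx3cr1, Ccr9 and Ccr10, and the strand setting of the quantification is not known. Of the 54 gene identifiers behind the 50 symbols, 6 lie on unplaced scaffolds. Protein sequences were not used here. The values of 1 tested member, which is included in the counts, are not reported here.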

Additional observations from a re-analysis of the deposited data

Results flagged for a closer look

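Among the 24 genes whose 4 WT libraries were examined for a library far from the rest, 2 stood out, where chance gives about 1 in 20. Ccl5 was at 8.52 CPM in WT library 1, against 17.8 to 17.9 CPM in the other WT libraries. Without that library its log2 fold change was 0.05 in place of 0.25. Ccr6 was at 3.25 CPM in WT library 3, against 0.965 to 1.10 CPM in the others, and without that library its log2 fold change was -0.24 in place of -0.86. Neither gene passed the test with or without that library.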

How the results depend on the processing

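The count of changed members was 1 (Ccr7) in the main analysis, 3 with DESeq2 (Ccr7, Cxcr5 and Ccr1), 2 with voom and sample weights (Ccr7 and Cxcr5), and 0 in each of the 3 limma fits on TPM values, which called 28 to 50 genes of all tested. It was 0 to 1 with a library left out, and 1 under the other scalings, filters, transcript sets and the threshold of 0.1. With the sample number as a replicate block it was 0, since Ccr7 had an adjusted p of 0.138. The deviations of same-numbered KO and WT libraries correlated at 0.106, -0.028 and -0.267, so the numbers were not taken as pairs. These numbers are those of the sample titles; the deposited data label 3 of the 4 WT libraries with other numbers, and the block and these correlations rest on the titles. Leaving out both KO library 3 and WT library 1, chosen after seeing the data, kept Ccr7 (adjusted p = 0.0402). The Ccr7 log2 fold change stayed between -1.65 and -0.96. Of 24 named genes 19 kept their sign throughout. Ccl3 turned to 0.042, 0.038 and 0.042 on TPM values with a pseudocount of 0.1, of 1 and of 0.1 without a filter. Cxcr4 turned to 0.13 in the same 3 fits. Ccl9 turned to -0.14 with voom weights, -0.0091 with coding transcripts alone, -0.044 with the replicate block and -0.15 without KO library 3 and WT library 1. Cxcl5 turned to -0.10 with voom weights, -0.023 with the block and -0.19 without both libraries. With 1 library left out the range was -0.30 to 0.10 for Ccl3, -0.11 to 0.16 for Ccl6, -0.15 to 0.11 for Ccl9 and -0.18 to 0.19 for Cxcl5. The cause was not tested for these changes.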

Other observations

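Part of the reads of several ligands was assigned to transcripts that do not encode the protein. The protein-coding transcripts of Ccl6 held 59.9 to 75.7% of its reads, with most of the others on 1 retained-intron transcript. The share was 38.6 to 62.1% for Ccl19, 58.6 to 73.4% for Cxcl16 and 7.85 to 45.8% for Ccl25, where 1 retained-intron transcript held 25 to 43 reads per library. Among the receptors Ccr7, Cxcr4, Cxcr5, Ccr1 and Cxcr2 the share was 100% in every library. For Ccr7, Cxcr4, Ccr1 and Cxcr2 only protein-coding transcripts were quantified, so their share could not be lower. Cxcr5 had a noncoding transcript, which held 0 reads in every library. Cxcr4 reads fell on a longer and a shorter coding transcript, and the shorter one held 568 to 756 reads in KO, 269 in WT library 1 and 562 to 658 in the other WT libraries.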
